A study of Mus musculus with 6 samples.

Results

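T-cell receptor beta chain rearrangements with a hydrophobic residue at position 6 or 7 of the CDR3 (complementarity-determining region 3) made up 930 of the 4409 rearrangements listed for the 6 samples. They were chosen from the listed CDR3 amino acid sequence. It had to start with cysteine, hold 13 to 15 residues, and carry phenylalanine, isoleucine, leucine, methionine, valine, tryptophan, tyrosine or cysteine at position 6 or 7, where the first cysteine is position 1. These members held 1470 of 7043 templates, and the other 2289 rearrangements of 13 to 15 residues, with 3744 templates, served for comparison. T follicular regulatory (Tfr) cells were sorted from the spleens of 3 mice of genotype Foxp3GFP, and every mouse provided a pair of samples. The titles call 1 of the pair superior and the other inferior and do not define either word, and the labels give no age, sex or treatment. All samples share the genotype, in which GFP marks Foxp3, the lineage factor of regulatory T cells, and no conventional T cells were analysed here. The labels name the cell type only as CD4 T cells, and rearranged genomic DNA cannot be checked against expressed markers. The samples held 667 to 1855 templates in 455 to 1112 rearrangements. The files do not state whether their whole-number counts are DNA templates or reads, and they are called templates here.

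The CDR3 of the beta chain is the loop in which a V, a D and a J segment meet, and enzymes trim the ends and insert bases at both joints. The V segment encodes the first residues and the J segment the last, so the middle of the loop comes from the D segment and the inserted bases. These middle residues tend to touch the peptide held by the MHC molecule. Hydrophobic residues there have been linked in earlier work to self-reactive receptors, and regulatory T cells are known for receptors with more affinity to self. Position numbering differs between studies, and the one used here counts from the first cysteine. In mice the TRBD1 segment lies before the TRBJ1 and TRBJ2 clusters, whereas TRBD2 lies between them and normally joins TRBJ2 only.

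The largest member rearrangement of each sample shows where the hydrophobic codon sits. The bases below encode the CDR3 from its first cysteine to the residue before the last, where the deposited rearrangements of 87 bases end, and capitals mark the hydrophobic codon. Each name gives the V and J segments and the residues at positions 6 and 7, and in superior mouse 3 the one shown is the first of 3 of equal size.
superior mouse 1, TRBV26 to TRBJ2-7, aspartate and tryptophan: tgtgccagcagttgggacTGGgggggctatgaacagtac
superior mouse 2, TRBV3 to TRBJ1-2, glutamate and tryptophan: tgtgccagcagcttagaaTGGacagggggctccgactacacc
superior mouse 3, TRBV12-1 to TRBJ2-1, leucine and glycine: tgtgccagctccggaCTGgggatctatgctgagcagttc
inferior mouse 1, TRBV3 to TRBJ2-7, tryptophan and aspartate: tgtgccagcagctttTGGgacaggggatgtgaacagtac
inferior mouse 2, TRBV2 to TRBJ2-7, aspartate and tryptophan: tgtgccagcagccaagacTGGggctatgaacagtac
inferior mouse 3, TRBV2 to TRBJ1-2, valine and alanine: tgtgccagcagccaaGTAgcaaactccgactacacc
In 4 of the 6 the marked codon is TGG, which encodes tryptophan. Those of superior mice 1 and 3 and of inferior mouse 2 carry a TRBD2 call in the deposited data, and the other 3 carry TRBD1.

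Few codon pairs at positions 6 and 7 carried a large part of the members. There were 245 pairs in all, and the 6 with the most templates are shown with the hydrophobic codon in capitals.
aspartate and tryptophan: gacTGG
leucine and glycine: CTGggg
tryptophan and glycine: TGGggg
glycine and leucine: ggaCTG
valine and glycine: GTGggg
tryptophan and aspartate: TGGgac
The first held 271 templates in 158 rearrangements, 18.4% of member templates, and all of them were called TRBD2. The second held 155 templates (10.5%), the third 108 (7.35%) and the fourth 94 (6.39%), with 98.1% to 100% of templates called TRBD2. The GTGggg pair held 36 templates, of which 80.6% were called TRBD2. The TGGgac pair held 27 templates, of which 7.41% were called TRBD2. All 6 pairs occurred in all 6 samples.

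Member shares did not separate the superior from the inferior samples. Of templates with a CDR3 of 13 to 15 residues, members held 33.7% in the superior sample of mouse 1 (172 of 510, 95% Wilson interval 29.8 to 37.9), 27.0% in that of mouse 2 (210 of 778, 24.0 to 30.2) and 26.5% in that of mouse 3 (225 of 848, 23.7 to 29.6). In the inferior samples they held 27.7% in mouse 1 (289 of 1045, 25.0 to 30.4), 31.6% in mouse 2 (216 of 684, 28.2 to 35.2) and 26.5% in mouse 3 (358 of 1349, 24.3 to 29.0). The groups overlapped, with mouse 1 higher in its superior and mouse 2 in its inferior sample. The intervals cover counting error only and take each template as independent. The superior mean was 29.1% ± 4.03 and the inferior mean 28.6% ± 2.65 (SD, n = 3 each), a difference of 0.493 points that did not pass a two-sided exact permutation test (p = 0.9), in which 3 samples against 3 cannot give a p below 0.1. Without mouse 1 the difference was -2.30 points and without mouse 2 it was 3.03. With each rearrangement counted once, the means were 29.7% ± 2.71 and 29.3% ± 3.29 (SD, n = 3 each, exact permutation p = 0.9).

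**Figure D1:**
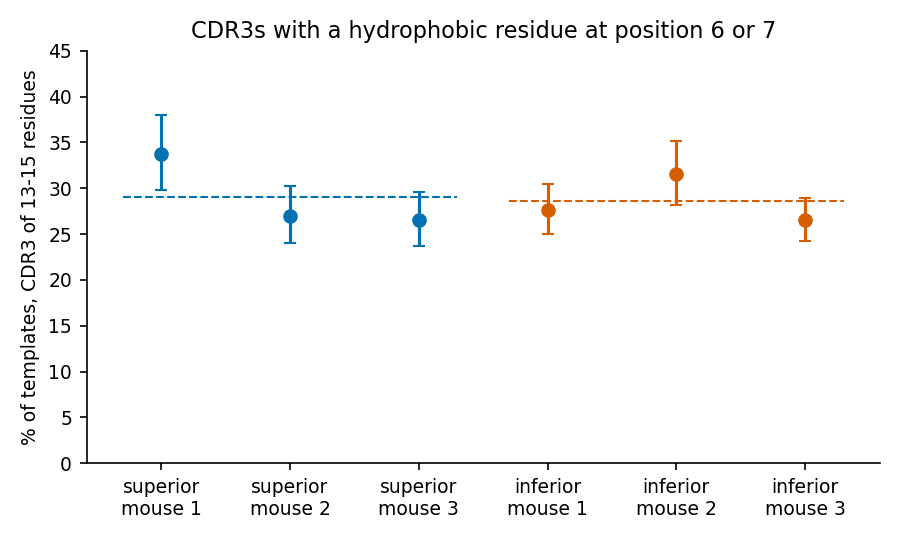
Share of members among templates with a CDR3 of 13 to 15 residues, in percent, for each of the 6 samples. Points are samples, bars are 95% Wilson intervals and dashed lines are the means of each group, 29.1% for superior and 28.6% for inferior samples. The superior samples spanned 26.5% to 33.7% and the inferior samples 26.5% to 31.6%.

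Between 13 and 15 residues, longer CDR3s were more often members. They held 24.4% of templates at 13 residues (95% Wilson interval 22.4 to 26.5), 28.1% at 14 (26.2 to 30.1) and 32.9% at 15 (30.5 to 35.3) over all samples. The share at 15 residues exceeded that at 13 in all 6 samples, with 28.8% to 46.4% against 21.5% to 28.8%. Just outside the length range, a hydrophobic residue at position 6 or 7 was found in 18.8% of templates at 12 residues and in 32.3% at 16 residues. At 11 residues it was found in 36.8% (131 of 356 templates, 32.0 to 41.9), more than at 15 or 16, so the share did not rise with length throughout. Just outside the position range, position 5 was hydrophobic in 32.1% of templates of 13 to 15 residues, mostly leucine with 20.4%, and position 8 in 10.9%. Position 6 was hydrophobic in 13.5% and position 7 in 15.4%.

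**Figure D2:**
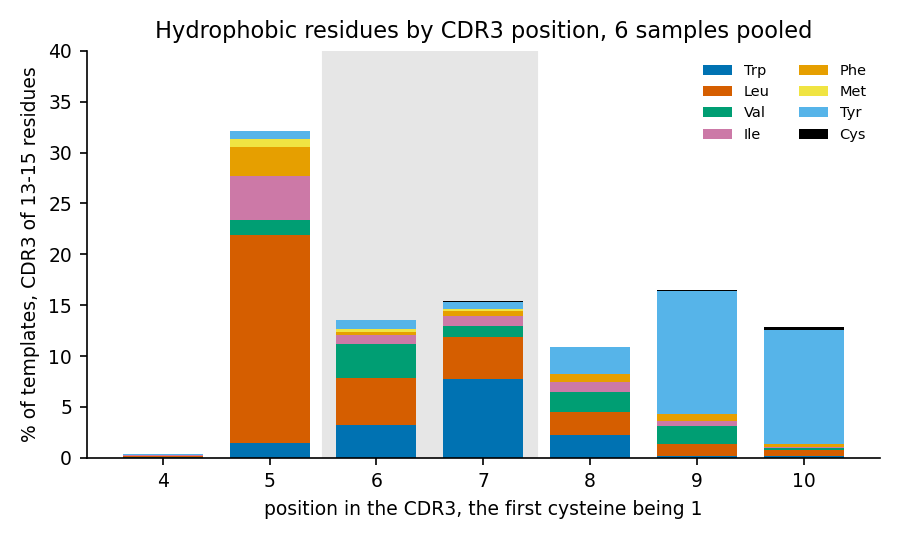
Percent of templates with a CDR3 of 13 to 15 residues that carry each hydrophobic residue at positions 4 to 10, pooled over 6 samples and stacked by residue, with positions 6 and 7 shaded. Tryptophan was most frequent at position 7, with 7.75% of templates, leucine led position 5 with 20.4%, and tyrosine led position 9 with 12.1%.

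Tryptophan and leucine were the leading hydrophobic residues of the members. Together they were present at position 6 or 7 in 1014 of 1470 member templates, and in 65.7% to 72.1% within each sample. The rule chose these residues, so their shares are a description. Tryptophan, the largest aromatic side chain, was carried by 38.4%, 33.8% and 44.9% of member templates in the superior samples of mice 1, 2 and 3, and by 37.4%, 37.5% and 40.8% in the inferior samples. The inferior samples lay within the range of the superior ones. Leucine, an aliphatic residue, was carried by 33.7%, 33.8% and 29.8% in the superior and by 28.7%, 33.3% and 27.7% in the inferior samples. The ranges overlapped here too. Valine followed with 15.4% of member templates over all samples, isoleucine with 6.80%, tyrosine with 5.85%, phenylalanine with 2.79% and methionine with 22 templates. Cysteine was present in 1 rearrangement only, with 3 templates in the superior sample of mouse 3.

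**Figure D3:**
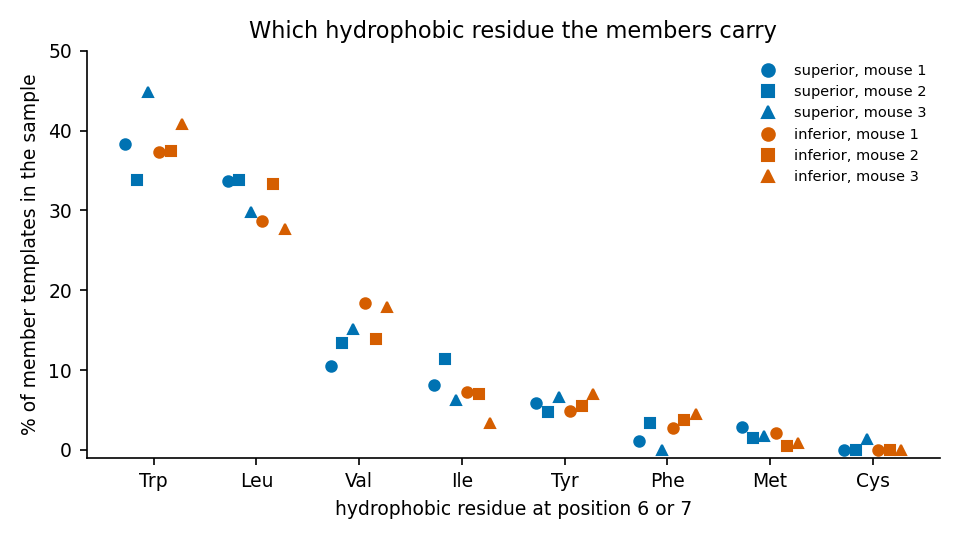
Percent of member templates in each sample that carry each hydrophobic residue at position 6 or 7, with colours for the group and symbols for the mouse. Tryptophan lay between 33.8% and 44.9% and leucine between 27.7% and 33.8% in the 6 samples, and no other residue exceeded 18.3%.

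Tryptophan stood mainly at position 7, with 404 templates against 169 at position 6, whereas leucine was near even, with 217 and 238. Valine stood mainly at position 6, with 174 templates against 53. In 37 templates, 2.52% of members, both positions were hydrophobic. Aromatic residues (phenylalanine, tryptophan, tyrosine) at position 6 or 7 were found in 13.2% ± 1.97 of templates of 13 to 15 residues in superior and in 13.6% ± 1.21 in inferior samples (SD, n = 3 each). Aliphatic ones (isoleucine, leucine, methionine, valine) were found in 16.3% ± 2.30 and 15.2% ± 2.19 (SD, n = 3 each). Neither difference passed the exact permutation test (p = 0.9 and 0.6, adjusted p = 0.9 for both over the 2 classes).

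Glycine was the most frequent residue after tryptophan and leucine, whereas the residue before them varied more. Tryptophan at position 7 followed aspartate in 69.8% of its templates and preceded glycine in 81.2%. Tryptophan at position 6 followed aspartate in 76 and proline in 22 of its 169 templates, and preceded glycine in 72.8%. Leucine at position 7 followed glycine in 50.7% and preceded glycine in 65.9%, and leucine at position 6 preceded glycine in 77.7%. The residue before leucine at position 6 was arginine in 21.4% and glycine in 19.7%. Of the 6 leucine codons, CTG alone held 76.0% of the leucine templates at these positions. Isoleucine and valine at position 7 were more often followed by serine, in 53.7% and 43.4% of their templates.

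The stretch CTGGGGG, the 7 bases whose share differed most between rearrangements called TRBD2 and TRBD1, was read in different frames by members and others. It was searched for in the CDR3 on the coding strand only and was present in 40.1% of member templates, in 450 of 3744 other templates and in 19.9% of all templates of 13 to 15 residues. Of 2438 templates called TRBD1, 1 held it, but the stretch was picked for that contrast, so this is a description. Read as CTG it gives leucine, shifted by 1 base it gives tryptophan from TGG, and in the remaining frame a codon ending in CT is followed by GGG, glycine. Of the 590 member templates with the stretch, 60.8% read tryptophan, 38.0% leucine and 1.19% the glycine frame. Of those other templates, 66.4% read the glycine frame, 20.4% tryptophan and 13.1% leucine. The rule fixes nearly all of this split, since leucine or tryptophan at position 6 or 7 makes a member, so it is a description. Of the 224 member templates reading leucine, the stretch put it at position 6 in 131 and at position 7 in 90. Of the 359 reading tryptophan, it stood at position 6 in 83 and at position 7 in 270.

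Over members and others together, 43.4% of templates with the stretch read tryptophan, 29.4% glycine and 27.2% leucine, so all 3 frames were in use. Where the stretch read tryptophan, the tryptophan stood at position 7 in 59.9% of templates, at position 6 in 18.4% and at position 8 in 18.4%. Where it read leucine, the leucine stood at position 6 in 46.3%, at position 7 in 31.8% and at position 5 in 15.2%. By sample, 31.9% to 44.8% of member templates held the stretch, and tryptophan was read in 53.2% to 70.1% of those. The share of the tryptophan frame was higher in the superior than in the inferior sample of mouse 3 and lower in those of mice 1 and 2.

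TRBD2 (14 bases at chromosome 6, 41542163 to 41542176, mm10) was the main D segment of the members. They held 51.7% of templates called TRBD2 and 12.6% of those called TRBD1 (12 bases at 41533201 to 41533212). In the 6 samples the first share ranged from 46.6% to 59.8% and the second from 11.3% to 15.1%, with no overlap. Where the D segment was unresolved, members held 19.8% (11.1% to 35.8% by sample). The D call rests on bases at and near positions 6 and 7, so it is not independent of the rule and these shares are a description.

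TRBD2 use was set side by side among TRBJ2 rearrangements with a resolved D segment, since TRBD2 normally joins TRBJ2. TRBD2 held 86.2%, 86.1% and 86.2% of member templates in mice 1, 2 and 3, and 44.9%, 47.7% and 42.3% of other templates. The mean difference over the 3 mice was 41.2 points (SD 2.80). Among TRBJ1 rearrangements, 33 of 263 member templates (12.5%) and 55 of 1395 other templates (3.94%) were also called TRBD2. Members called TRBD1 carried other residues, with valine in 33.4%, isoleucine in 19.5%, tyrosine in 15.6% and tryptophan in 14.9% of their templates, against tryptophan in 51.3% and leucine in 40.7% of those called TRBD2.

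**Figure D4:**
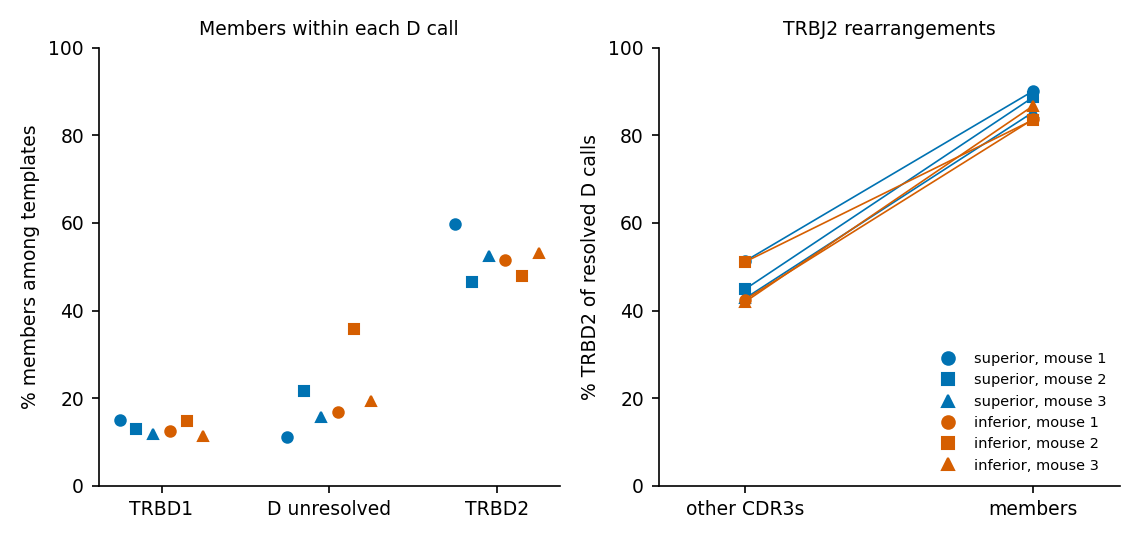
Left, percent of templates with a CDR3 of 13 to 15 residues that are members, by D call, in each of the 6 samples. Right, percent of TRBD2 among resolved D calls in TRBJ2 rearrangements, for other CDR3s and for members, with lines joining the same sample. Members made up 46.6% to 59.8% of templates called TRBD2 and 11.3% to 15.1% of those called TRBD1.

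Members used TRBJ1-1, TRBJ1-3 and TRBJ1-5 less and TRBJ2-5 more than the other CDR3s of 13 to 15 residues. TRBJ1 segments held 17.9% of member and 37.3% of other templates. Templates were summed over both samples of a mouse. J segments of 10 or more templates entered edgeR's quasi-likelihood test, with the mouse as a block. This called 4 of 12 segments (33.3%) at an adjusted p under 0.05, 3 lower (25%) and 1 higher (8.33%) in members. J use is not fully independent of the rule, because germline J bases can reach position 7 in short CDR3s and because TRBD2 joins TRBJ2.

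TRBJ1-5 (chromosome 6, 41535084 to 41535133, mm10) held 1.95%, 0.939% and 1.37% of member templates in mice 1, 2 and 3, against 6.68%, 3.67% and 5.95% of the others. It was lower in members in all 3 mice, with no overlap (log2 -1.94, SE 0.33, edgeR adjusted p = 0.00123). TRBJ1-1 (41533864 to 41533911) held 1.17% to 2.75% against 5.69% to 7.04% (log2 -1.89, SE 0.29, edgeR adjusted p = 0.00379). TRBJ1-3 (41534323 to 41534372) held 4.56%, 2.11% and 1.55% against 8.78%, 8.59% and 11.1% (log2 -1.85, SE 0.38, edgeR adjusted p = 0.0124). Both were also lower in members in all 3 mice.

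TRBJ2-5 (41543453 to 41543501) was the segment called higher, with 14.3%, 14.6% and 13.4% of member templates against 8.42%, 8.01% and 8.18% of the others (log2 0.78, SE 0.19, edgeR adjusted p = 0.0193). TRBJ2-7 (41543810 to 41543856), the most used J segment, held 38.6% ± 1.07 of member and 29.8% ± 5.81 of other templates (SD, n = 3 mice), and TRBJ2-1 (41542754 to 41542803) held 12.2% ± 1.27 and 8.06% ± 0.743. Both had higher values in members in 3 of 3 mice but did not pass the threshold (edgeR adjusted p = 0.0869 and 0.0787). TRBJ1-4 (41534811 to 41534861) held 2.39%, 10.1% and 6.19% of member templates and 7.78%, 6.18% and 7.74% of the others (edgeR adjusted p = 0.604), and was higher in members in mouse 2 only.

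The number of J calls changed when a mouse or the TRBD2 calls were left out, while the 4 called segments kept their direction. Without mouse 2 the edgeR test called 0 of the 12 J segments (6 at unadjusted p under 0.05), with log2 values of -1.76 for TRBJ1-1, -1.78 for TRBJ1-3 and -1.93 for TRBJ1-5, close to those over all 3 mice. Without mouse 3 it called TRBJ1-1 and TRBJ1-5, and TRBJ1-3 was at log2 -1.41. Without mouse 1 it called the 3 lower segments. TRBJ2-5 was thus no longer called without any 1 of the mice (log2 0.74 to 0.81), nor by DESeq2 (log2 0.85), which called the 3 lower segments on all mice. With 14 residues only, TRBJ1-3 alone was called, while TRBJ1-1 was at log2 -1.16, TRBJ1-5 at -1.13 and TRBJ2-5 at 0.75. After rearrangements called TRBD2 were left out, an alternative chosen after seeing the data, edgeR called 0 of 12 (3 at unadjusted p under 0.05, lowest adjusted p = 0.162). TRBJ1-1 was then at log2 -0.94, TRBJ1-3 at -0.90, TRBJ1-5 at -0.82 and TRBJ2-5 at 0.51, smaller but in the same direction. Other TRBJ1 segments went the other way, with TRBJ1-2 at log2 0.57 and TRBJ1-6 at 0.83 (edgeR unadjusted p = 0.0405 and 0.0423). With TRBD2 calls kept, these 2 were at -0.54 and -0.27. TRBJ2-7 held 21.4% ± 3.47 of member and 22.4% ± 4.44 of other templates (SD, n = 3 mice), and TRBJ1-4 held 16.9% ± 8.47 and 9.38% ± 0.801. Among templates called TRBD1, members held 12.8% of those with TRBJ1 and 12.5% of those with TRBJ2, pooled over samples. By sample these shares ranged from 10.8% to 18.4% with TRBJ1 and from 8.29% to 15.7% with TRBJ2.

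**Figure D5:**
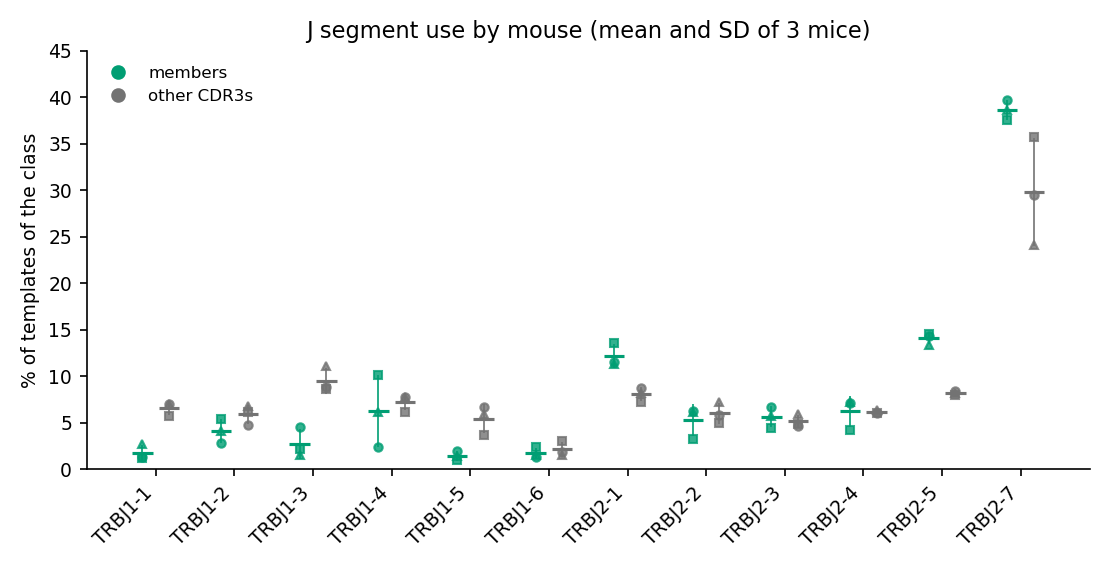
Percent of member templates (green) and of other templates of 13 to 15 residues (grey) that used each J segment, with 1 symbol per mouse and lines for the mean and SD of 3 mice. TRBJ1-1, TRBJ1-3 and TRBJ1-5 lay lower in members and TRBJ2-5 higher, with no overlap between the classes for these 4 segments. TRBJ2-7 and TRBJ2-1 lay higher in members without overlap too, but were not called.

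Among members, J use did not separate the superior from the inferior samples. Of 12 J segments, edgeR called 0 (0%) and DESeq2 0, and edgeR found 0 at an unadjusted p under 0.05. TRBJ2-7 held 44.8%, 34.8% and 38.4% of member templates in the superior samples of mice 1, 2 and 3 and 36.7%, 40.3% and 38.8% in the inferior samples, which overlapped.

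No V segment passed the test between members and other CDR3s. Of 22 V segments, edgeR called 0 (0%) and DESeq2 0, and edgeR found 0 at an unadjusted p under 0.05. Among the 6 segments most used by members, TRBV19 (chromosome 6, 41178589 to 41179048, mm10) held 14.3%, 12.4% and 8.06% of member templates in mice 1, 2 and 3, and 7.59% to 10.5% of the others (log2 0.28, SE 0.19, edgeR adjusted p = 0.544). It was higher in members in mice 1 and 2 and lower in mouse 3. TRBV2 (41047556 to 41047995) held 8.03%, 11.5% and 10.8% of member templates against 10.3%, 17.5% and 11.3% (log2 -0.34, SE 0.18, edgeR adjusted p = 0.544), lower in members in 3 of 3 mice.

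TRBV13-2 (41121396 to 41121832) held 11.4% ± 1.25 of member and 12.4% ± 0.623 of other templates (SD, n = 3 mice), also lower in members in 3 of 3 mice. TRBV3 (41048394 to 41048824) held 10.5% ± 1.36 and 9.94% ± 0.742. TRBV5 (41062359 to 41062803) held 6.86% ± 1.31 and 7.82% ± 1.19, and TRBV13-3 (41130147 to 41130585) held 5.04% ± 2.17 and 4.45% ± 1.13. Of segments with 100 or more templates, named after their values were seen, TRBV4 had the highest share of members, 41.4% of 111 templates, and TRBV29 the lowest, 18.9% of 122 (edgeR adjusted p = 0.544 for both).

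V use of the members between superior and inferior samples was also tested. Of 21 V segments, edgeR called 0 (0%) and DESeq2 0, and edgeR found 0 at an unadjusted p under 0.05. TRBV13-2 held 5.23%, 7.62% and 11.6% of member templates in the superior samples of mice 1, 2 and 3 and 16.6%, 15.7% and 8.94% in the inferior samples (log2 -0.72, SE 0.42, edgeR adjusted p = 0.953). Mice 1 and 2 had lower values in the superior sample and mouse 3 a higher one, and without mouse 3 this segment alone passed the threshold (edgeR adjusted p = 0.0227).

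Clone size did not separate members from the other CDR3s. A member rearrangement held 1.57, 1.56 and 1.60 templates on average in mice 1, 2 and 3, and another rearrangement 1.64, 1.69 and 1.60. The difference, -0.0646 templates (SD 0.0665, n = 3 mice), did not pass a two-sided exact sign-flip permutation test (p = 0.5), in which 3 mice cannot give a p below 0.25. Without TRBJ2-7 rearrangements the difference was -0.0902 templates, at that smallest possible p (exact sign-flip p = 0.25). Single-template rearrangements made up 64.6% ± 2.59 of members and 64.6% ± 2.43 of the others (SD, n = 3 mice, exact permutation p = 1). Rearrangements of 5 or more templates numbered 23 of 930 members (2.47%) and 74 of 2289 others (3.23%). The largest member had 11 templates and the largest other rearrangement 35. These values count rearrangements that differ anywhere in the 87 listed bases as separate. With those of equal V, CDR3 bases and J merged, 895 distinct members became 795 and 2191 others became 1973. The difference in templates per rearrangement was then -0.0496 (exact sign-flip p = 0.5).

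Of the 3 largest members of each sample, 12 of these 18 were listed in 1 sample of their mouse and the rest in both. Over all distinct members, 3.17%, 4.60% and 3.41% were in both samples of mice 1, 2 and 3. The 18 were picked for their size, whereas 64.5% of all member rearrangements held 1 template in their sample. The 2 rates are therefore not of like sets. The largest was the TRBV3 to TRBJ2-7 rearrangement shown for inferior mouse 1, with 11 of 1370 templates (0.803%, 95% Wilson interval 0.449 to 1.43) there and 2 of 667 (0.300%) in the superior sample. Next in that inferior sample were a TRBV13-3 to TRBJ2-7 rearrangement with valine at position 6 and 9 templates, unlisted in the superior sample, and a TRBV5 to TRBJ2-7 rearrangement with leucine at position 6 and 8 templates against 2. Superior mouse 1 was headed by the TRBV26 rearrangement with tryptophan at position 7 and 7 templates (1.05%, 0.509 to 2.15). Below it came TRBV13-3 to TRBJ2-7 with leucine at position 6 and 6 templates, and TRBV5 to TRBJ2-7 with leucine at position 7 and 4 templates, 1 of 2 tied at that size. None of these 3 was listed among the 1370 templates of the inferior sample, which allows a share of up to 0.219% each.

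For mouse 2, the TRBV3 to TRBJ1-2 rearrangement with tryptophan headed the superior sample with 6 of 1095 templates (0.548%), against 3 of 920 (0.326%) in its inferior partner. TRBV3 to TRBJ1-3 with isoleucine at position 6 followed with 4 templates against 0. TRBV14 to TRBJ2-7 with phenylalanine at position 6 had 3 against 1 and was 1 of 11 tied at 3 templates. Largest in the inferior sample was TRBV2 to TRBJ2-7 with tryptophan, at 8 templates against 0 of 1095 (a limit of 0.274%). TRBV13-2 to TRBJ1-4 with isoleucine at position 7 had 7 against 1, and TRBV2 to TRBJ1-4 with leucine at position 7 had 6 against 0, 1 of 2 tied. The leading members of mouse 2 thus carried tryptophan, isoleucine, phenylalanine or leucine.

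For mouse 3, 3 members had 5 templates each in the superior sample. These were the TRBV12-1 rearrangement with leucine at position 6, a TRBV2 to TRBJ2-7 rearrangement with leucine and tryptophan at positions 6 and 7, and a TRBV2 to TRBJ2-7 rearrangement with leucine at position 7. None was listed among the 1855 templates of the inferior sample, which allows up to 0.162% each. Largest in the inferior sample was TRBV2 to TRBJ1-2 with valine, at 9 templates against 1. TRBV13-2 to TRBJ2-7 and TRBV2 to TRBJ2-7, each with aspartate and tryptophan at positions 6 and 7, had 8 templates each against 0 of 1136 (a limit of 0.264%).

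Few members were found in both samples of a mouse. In mouse 1 these were 9 of 284 distinct member rearrangements (3.17%, 95% Wilson interval 1.68 to 5.91) against 19 of 650 others (2.92%). In mouse 2 they were 12 of 261 (4.60%, 2.65 to 7.86) against 33 of 579 (5.70%), and in mouse 3 they were 12 of 352 (3.41%, 1.96 to 5.86) against 42 of 966 (4.35%). The mean difference of -0.598 points (SD 0.736, n = 3 mice) did not pass the exact sign-flip permutation test (p = 0.5), and the sign in mouse 1 opposed that in the other mice. With rearrangements of equal V, CDR3 bases and J merged, the mean difference was -0.411 points.

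Between mice, 2 of 895 distinct member rearrangements (0.223%) were found in 2 mice, against 4 of 2191 others (0.183%), and none in all 3. With clonotypes defined by CDR3 amino acids plus V and J segments, 6 of 786 members (0.763%, 95% Wilson interval 0.350 to 1.66) and 17 of 1939 others (0.877%, 0.548 to 1.40) were found in 2 mice, and the intervals overlapped. All 6 shared members were called TRBD2. Of these, 5 carried tryptophan and 1 leucine, and 4 held the residues aspartate, tryptophan and glycine in a row. Of all 1470 member templates, 992 were called TRBD2, 573 carried tryptophan and 450 leucine at position 6 or 7. These are counts of templates, not of clonotypes, and the run of aspartate, tryptophan and glycine was not counted over all members. Whether the 6 shared members differ from the other members was not tested. The shared member with the most templates joined TRBV2 to TRBJ2-7. It had 8 templates in inferior mouse 2 and 9 in inferior mouse 3, where 8 of the 9 belonged to 1 listed rearrangement. A TRBV3 to TRBJ2-7 clonotype had 4 and 3 templates in the superior samples of mice 1 and 2, and a TRBV13-3 to TRBJ2-2 clonotype had 2 each in those of mice 1 and 3. The TRBV15 clonotypes with TRBJ2-5 and with TRBJ2-1 had 3 templates each in all, and the TRBV19 to TRBJ2-5 clonotype, the one with leucine, had 2.

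The CDR3 bases of the leading pair show whether the mice shared nucleotides as well as amino acids, with the tryptophan codon in capitals.
TRBV2 to TRBJ2-7, inferior mouse 2: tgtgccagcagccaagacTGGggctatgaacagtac
TRBV2 to TRBJ2-7, inferior mouse 3: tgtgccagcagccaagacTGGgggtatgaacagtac
TRBV3 to TRBJ2-7, superior mice 1 and 2: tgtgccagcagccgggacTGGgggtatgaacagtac
The TRBV2 clonotype had 2 nucleotide forms, 1 per mouse, whereas the TRBV3 clonotype had the same bases in both mice. Over all clonotypes, 9 of 786 members (1.15%, 95% Wilson interval 0.604 to 2.16) and 34 of 1939 others (1.75%, 1.26 to 2.44) had more than 1 CDR3 nucleotide form.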

How the data were processed

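TCRB rearrangements were amplified from genomic DNA with immunoSEQ (mouse, survey resolution), per the labels' protocols. The deposited counts are whole numbers per distinct nucleotide rearrangement, and the deposited productive frequency is a fraction, the count over the sample's sum. The build is mm10 according to the submitters' processing notes. Caller and filters: not given in the sources used here. All samples carry the same barcode value in the deposited data, and whether they were run together is not known here.

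CDR3s not starting with cysteine (41 rearrangements, 48 templates) were left out. Segment names were matched to RefSeq symbols of GRCm38.p6, the assembly of mm10. Segment use was tested with edgeR 4.0.16 (R 4.3.3) on template counts, with column totals as library size, a common dispersion, 10 or more templates per segment and Benjamini-Hochberg adjustment at 0.05. SEs are the larger of the quasi-likelihood and the Poisson one. As an alternative, DESeq2 1.42.0 was run. Shares and permutation tests used scipy 1.17.1 under Python 3.11.15, and the edgeR step was tested on simulated data. Alternatives covered lengths, residues counted, normalization and leaving out each mouse.

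Members and lists were chosen with earlier results of these data known. Named were the 6 V and 4 J segments most used by members and those past the threshold, the 3 largest members of each sample and members found in 2 mice. Both samples of a number come from 1 mouse. Deviations from the group means of member shares correlated within mice 1, 2 and 3 at 0.159, -0.252 and -0.364 over V and at -0.0670, 0.217 and -0.674 over J segments.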

Additional observations from a re-analysis of the deposited data

How the results depend on the processing

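The share of members differed between superior and inferior samples by 0.493 points over templates and 0.358 over rearrangements, too little to have a direction. It turned to -0.979 and -0.0288 with 14 residues only and to -0.624 and -0.499 with all lengths of 8 or more residues. Without rearrangements called TRBD2, chosen after seeing the data, it was -1.67 over templates. Leaving out each mouse gave -2.30 to 3.03 over templates and -1.10 to 2.17 over rearrangements, and -1.93 to 1.24 for aromatic residues (1.24 without mouse 2). With the replicate block (pairing by mouse) the difference was 0.493 with exact sign-flip p = 1, and V and J use among members had 0 calls with and without it.

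J segments called between members and others numbered 4, and 7 with each rearrangement counted once, 1 with 14 residues only, 0 without TRBD2 calls and 0 to 3 without each mouse. Without mouse 2, where none was called, TRBJ1-1 was at log2 -1.76, TRBJ1-3 at -1.78 and TRBJ1-5 at -1.93, and without TRBD2 calls they were at -0.94, -0.90 and -0.82. With no replicate block they numbered 5, as TRBJ2-1 was added (log2 0.58). V segments called among members between the groups numbered 0, and 0 to 1 without each mouse. Log2 values of uncalled segments turned in sign as follows. With each rearrangement counted once, TRBV13-3 was -0.14 and TRBV3 -0.032. With 14 residues only, TRBV3 was -0.25, TRBV5 0.0065 and TRBJ1-4 0.44. Without TRBD2 calls, TRBV13-3 was -0.013, TRBV2 0.21, TRBJ1-4 0.80 and TRBJ2-7 -0.059. Of the less used J segments, TRBJ1-2 (0.57), TRBJ1-6 (0.83), TRBJ2-3 (-0.91) and TRBJ2-4 (-0.16) also turned in sign without these calls. Without mouse 1, TRBV13-3 was -0.30, TRBV19 -0.046 and TRBJ1-4 0.17, and leaving out each mouse gave -0.30 to 0.44 for TRBV13-3, -0.046 to 0.61 for TRBV19 and -0.85 to 0.17 for TRBJ1-4. The causes were not tested. The TRBD2 difference stayed within 39.8 to 49.3 points under the alternatives run. With 667 to 1855 templates per sample and 3 mice, small differences in share cannot be seen.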
